A study of Rattus norvegicus with 4 samples.

Results

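The S100 genes encode a family of small calcium-binding proteins. The 7 genes examined here, S100b, S100a1, S100a4, S100a6, S100a10, S100a13 and S100a16, were chosen as members of this family by gene symbol, and all 7 are listed among the 17327 symbols of the deposited counts. They were followed in OLN93 cells, an oligodendroglial line from the rat that became immortal spontaneously and was grown in DMEM with fetal calf serum. RNA-Seq was performed on 2 control libraries, labelled Sox10-positive, and on 2 Sox10-deficient (Sox10ko) libraries from clones A and B, in which CRISPR/Cas9 had been directed against the Sox10 gene with different guide RNAs. The Sox10-deficient libraries are a single clone each, and the controls are described as biological replicates in the labels and as clones in the methods of the study. P-values therefore set the difference between groups against the spread of libraries within them. They cannot tell loss of Sox10 from differences between clones. The comparison asks which S100 genes depend on the transcription factor Sox10 in these cells.

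S100 proteins carry a pair of EF-hands, the helix-loop-helix units that hold calcium, and work mostly as dimers inside the cell. On binding calcium they expose a surface that docks onto target proteins of the cytoskeleton, of membranes and of signalling pathways, and some members are also released and act on receptors such as the product of Ager. S100b is known for its expression in glia, where it marks astrocytes, Schwann cells and part of the oligodendroglial lineage, whereas S100a4, S100a6, S100a10 and S100a11 are expressed by many cell types.

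The authors deposited mean normalized counts per Ensembl gene that sum to 19320879. Low depth here thus refers to the counts deposited for each library, not to the sequencing. These deposited counts were shallow. They summed to between 60951 and 104017 per library, so that 3 counts, taken as the floor of a library, corresponded to between 29.1 and 48.0 normalized counts on the CPM scale, on which each library is scaled to 1000000 counts. Floors, and intervals of count ratios and of shares, cover counting error only. Intervals of log2 fold changes come from the edgeR fit and also take in the spread between libraries. Sox10 itself had 28 and 64 counts in control 1 and control 2, 0 in the library of clone A and 14 in that of clone B. Only S100b, S100a4 and S100a10 of the 7 genes had enough counts to be tested. S100a6 and S100a13 had 1 or 2 counts in a single library, and S100a1 and S100a16 had none. Over the 2438 tested genes, edgeR's quasi-likelihood test called 2.5% lower and 1.19% higher in the Sox10-deficient clones at a Benjamini-Hochberg adjusted p of 0.05 or less. Transcript lengths were not used here, so that levels are compared between libraries and not between genes.

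S100b and S100a4, which had the largest fitted differences among the 3 tested members, lie on different chromosomes, with 6 of the 7 genes on chromosome 2 and S100b on chromosome 20 of the RefSeq annotation. Their promoters are shown because Sox10 acts by binding DNA. The windows hold the 250 bases before the annotated start in RefSeq on GRCr8 (the counts were made on another build), 5′ to 3′ on the strand of the gene. They lie at chr20:12381082-12381331 on the minus strand for S100b and at chr2:178388279-178388528 on the plus strand for S100a4. Capitals mark matches to the motifs searched, read on both strands.
S100b promoter: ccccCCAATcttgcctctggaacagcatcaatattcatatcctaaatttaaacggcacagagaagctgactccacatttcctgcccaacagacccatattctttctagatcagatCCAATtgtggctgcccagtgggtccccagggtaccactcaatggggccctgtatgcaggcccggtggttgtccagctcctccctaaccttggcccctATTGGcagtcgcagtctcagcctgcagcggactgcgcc
S100a4 promoter: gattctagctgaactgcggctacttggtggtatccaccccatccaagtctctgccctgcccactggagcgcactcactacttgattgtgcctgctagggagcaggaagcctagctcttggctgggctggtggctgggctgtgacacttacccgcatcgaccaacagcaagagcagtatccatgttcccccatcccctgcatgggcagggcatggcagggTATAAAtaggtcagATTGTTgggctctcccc
Motifs bound by Sox proteins as a class were searched. The first was ACAAAG, another ACAATG and the last AACAAT, which can overlap with the one before it. A TATA box, TATAAA, and the box CCAAT were added after the windows had been seen. The window of S100b held 3 CCAAT boxes and no match to the 3 Sox motifs, and the CCAAT box nearest to the start began 38 bases upstream of it. The window of S100a4 held 1 AACAAT on the opposite strand, beginning 17 bases upstream of the start, and 1 TATAAA beginning 31 bases upstream. A match to any of the 3 Sox motifs was present in 30.1% of the 33469 RefSeq promoter windows of this length, AACAAT in 10.3%, TATAAA in 12.9% and CCAAT in 34.0%. Windows were listed for 5 of the 7 genes, and those of S100a6, S100a13 and S100a16 held no Sox motif. S100a1 and S100a10 had no entry. In reporter assays of the study, the promoters of Mag and Pdgfra responded to Sox10. The Sox10-bound regions that it examined near Tgfb2, Id4 and Wnt7a lie kilobases downstream of the start, outside windows of this kind. The presence or absence of a match here therefore does not decide whether Sox10 acts on a gene, and binding was not tested.

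S100b fell strongly in Sox10-deficient cells. S100b (ENSRNOG00000001295) had 26 counts in control 1 and 22 in control 2, but 2 in clone A and 1 in clone B. Both clones thus lay at or under the floor, and the groups did not overlap, as was the case in the lower direction for 21.4% of all tested genes and in either direction for 43%. The level of S100b was 314 ± 143 CPM (SD, n = 2) in the controls and 17.3 ± 8.42 CPM (SD, n = 2) in the clones. Pooled over each group, 48 counts stood against 3, which made the level in the controls 16.8 times that in the clones (95% interval 5.43 to 84.5, Clopper-Pearson on the counts). The fitted log2 fold change was -4.04 with a standard error of 0.73, and S100b was called lower (edgeR's quasi-likelihood test, adjusted p = 0.00304). S100b passed the count filter through its control libraries alone. A gene kept in this way can hardly come out other than lower, so that the call adds little to the counts. It was also the only member with a change of at least 2-fold at an unadjusted p of 0.05 or less, a rule that 6.97% of tested genes met in the lower and 4.63% in the higher direction. DESeq2 gave -4.17 with an adjusted p of 0.0133.

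Both clones were at or under the floor for S100b, while their Sox10 RNA differed. Clone A, with 0 counts of Sox10, held 7.39% of the mean control level of S100b. Clone B, in which Sox10 stood at 29.7% of its own control mean, held 3.60%. With 2 counts and 1 count these S100b levels could not be told from each other (ratio 2.05, 95% interval 0.107 to 121). Within the controls, S100b was higher in control 1, at 416 CPM, than in control 2, at 213 CPM, a ratio of 1.95 (95% interval 1.06 to 3.61). Sox10 had the opposite order in the controls, with 448 CPM in control 1 and 620 CPM in control 2, from 28 and 64 counts. No interval was computed for this order of Sox10, which may lie within counting error. The call for S100b rested on both controls, since the log2 fold change was -3.55 with an adjusted p of 0.114 without control 1, and -4.50 with an adjusted p of 0.386 without control 2, a fit in which 0 genes were called in either direction, against 138 lower and 137 higher genes by an unadjusted p of 0.05 or less with a change of at least 2-fold (edgeR). Without clone A or clone B, S100b stayed called, with log2 fold changes of -4.57 and -3.63. In bulk RNA, fewer cells with S100b and less S100b RNA per cell cannot be told apart.

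**Figure D1:**
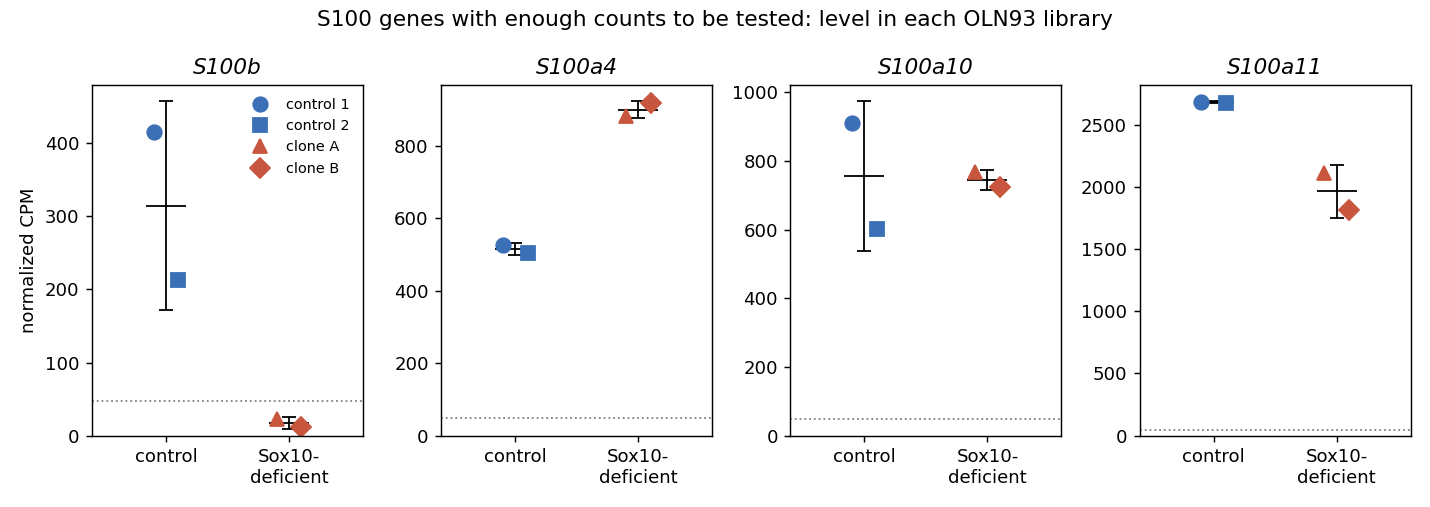
Normalized CPM (vertical axis, from 0) of S100b, S100a4, S100a10 and S100a11 in control and Sox10-deficient OLN93 cells, with 1 symbol per library, the mean as a horizontal bar, the SD (n = 2) as an error bar, and a dotted line at the highest floor of 48.0 CPM. The clones lie below the floor for S100b, above both controls for S100a4, between the controls for S100a10 and below both controls for S100a11.

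S100a4, which encodes a protein known for binding non-muscle myosin and for its role in cell motility, had higher values in the clones but did not pass the test. S100a4 (ENSRNOG00000011821) was counted 33 times in control 1 and 52 times in control 2, against 76 times in clone A and 81 times in clone B. These counts corresponded to 528 and 504 CPM in the controls and to 883 and 917 CPM in the clones. The libraries of each group lay close together and the groups did not overlap, which in the higher direction was also seen for 21.6% of all tested genes. Its log2 fold change was 0.80, with a standard error of 0.28 and a 95% interval of 0.22 to 1.38 (edgeR's quasi-likelihood test, adjusted p = 0.136). Without adjustment, p was 0.00973 from the same test and 0.0539 from DESeq2, where 14.7% of all tested genes had an unadjusted p of 0.05 or less in edgeR. The adjusted p ranged from 0.134 to 0.615 over the alternatives.

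S100a10 encodes p11, a family member that has lost the ability to bind calcium and is known as the light chain of a complex with annexin A2. No difference was found for S100a10 (ENSRNOG00000023226). Its counts were 57 and 62 in control 1 and control 2, next to 66 for clone A and 64 for clone B. The level was 756 ± 219 CPM (SD, n = 2) in the controls and 746 ± 29.6 CPM (SD, n = 2) in the clones, and both clones lay between the controls. Control 1 stood above control 2 by 1.52 times (95% interval 1.04 to 2.21). The log2 fold change was 0.00057, and its 95% interval of -0.57 to 0.57 leaves room for modest changes in either direction (edgeR's quasi-likelihood test, adjusted p = 0.999).

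**Figure D2:**
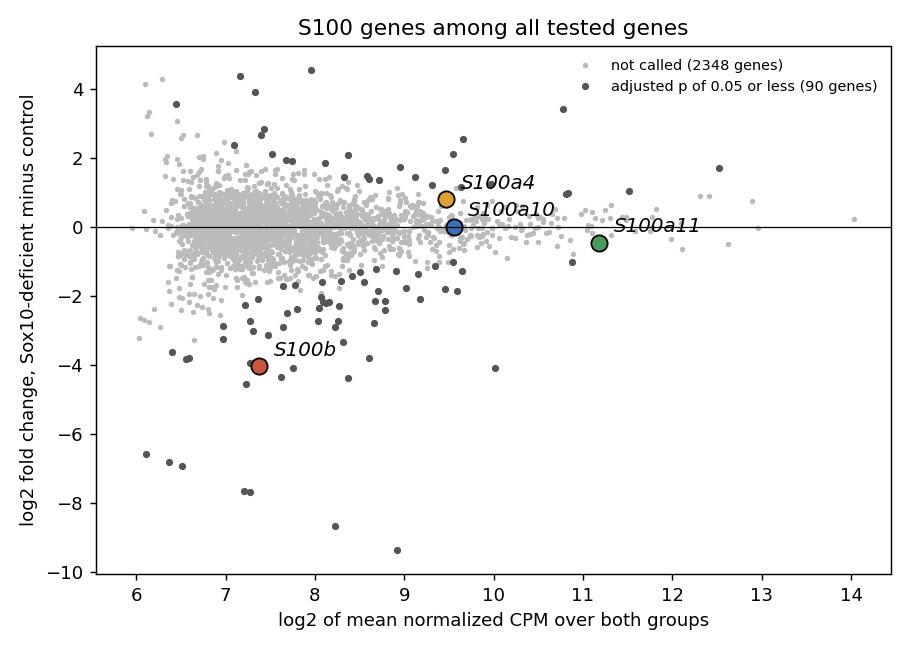
Log2 fold change between Sox10-deficient and control cells (vertical axis) against the log2 of the mean normalized CPM (horizontal axis) for the 2438 tested genes, 1 point per gene, with called genes (adjusted p up to 0.05) in dark grey and S100 genes labelled. S100b lies at -4.04 among the called genes, while S100a4 at 0.80, S100a10 at 0.00057 and S100a11 at -0.45 lie among the genes that were not called.

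The 3 tested members can also be set against each other within a library, which needs no scaling. Per count of S100a10, control 1 and control 2 held 0.456 and 0.355 counts of S100b, but clones A and B held 0.0303 and 0.0156. For S100a4, control 1 and control 2 gave ratios of 0.579 and 0.839, and the clones ratios of 1.15 and 1.27. Both ratios separated the groups, but they reuse the counts of S100b and S100a4, whose levels already did not overlap. The groups did not overlap in either direction for 43% of all tested genes. The 7 genes together made 116 and 136 counts per control and 147 and 146 per clone, or 1854 and 1318 CPM against 1708 and 1653 CPM, so that both clones lay between the controls on the CPM scale. The make-up of this sum differed. S100b took 22.4% of it in control 1 (95% interval 15.2 to 31.1, Clopper-Pearson) and 16.2% in control 2 (10.4 to 23.5), but 1.36% in clone A (0.165 to 4.83) and 0.685% in clone B (0.0173 to 3.76). S100a4 took 28.4% and 38.2% in the controls against 51.7% and 55.5% in the clones, and S100a10 between 43.8% and 49.1% in all 4 libraries. Shares of 1 sum are not independent of each other.

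The remaining members were too rare in these counts to be compared. S100a6, or calcyclin, which binds the product of Cacybp, had 0 counts in both controls and in clone B and 2 counts in clone A. S100a13, which is known for its part in the unconventional release of Fgf1 and interleukin 1 alpha, had 1 count in clone A and 0 elsewhere. S100a1, best known from heart muscle, and S100a16, a widely expressed member, had 0 counts in all 4 libraries, which allows levels of up to 48.0 CPM in control 1 and up to 29.1 CPM in control 2. All of these values lie at or under the floor, and no comparison was made. The authors' deposited table of mean normalized counts per Ensembl gene holds far larger values. It lists S100a6 with a mean of 1178 over all libraries, S100a13 with 77, S100a1 with 41 and S100a16 with 0. The members tested here have a mean of 4219 for S100b, 24035 for S100a10 and 41926 for S100a4 in that table.

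For the 5353 genes with a mean of at least 500 in the authors' table, the median ratio of the mean deposited count to that value was 0.384%. S100b, at 0.302%, and S100a10, at 0.259%, stood within the bulk of these genes, at percentiles 31.4 and 22.7. S100a4, at 0.144%, stood at percentile 6.59. S100a6, at 0.0424%, stood at percentile 0.915, a lower ratio than for nearly all of these genes. The annotation behind the deposited counts is by symbol and that behind the table by Ensembl gene, and the part of this difference in these ratios was not tested.

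**Figure D3:**
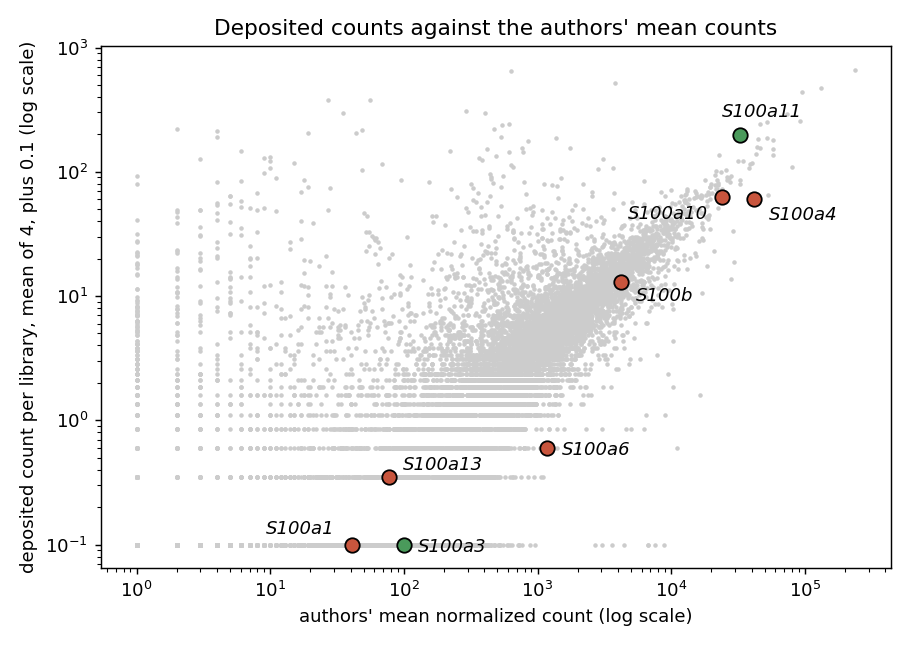
Mean deposited count per library plus 0.1 (vertical axis, log scale) against the authors' mean normalized count (horizontal axis, log scale), 1 grey point per gene, with members in red and other S100 genes in green. S100b and S100a10 lie within the main cloud, S100a4 near its lower edge and S100a6 far below it, at 0.0424% of the authors' mean.

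Of 9 further S100 genes listed in the counts, 7 had no count, among them S100a8 and S100a9, which are known from neutrophils, and S100g had 2 counts in clone B alone. S100a11 was the exception. It encodes calgizzarin, a partner of annexin A1, and was counted 168 and 276 times in control 1 and control 2, against 182 and 160 times in clones A and B. The level of S100a11 was 2681 ± 7.16 CPM (SD, n = 2) in the controls and 1963 ± 214 CPM (SD, n = 2) in the clones. Both clones lay below both controls, but the log2 fold change of -0.45 (95% interval -0.96 to 0.056) did not pass edgeR's quasi-likelihood test (adjusted p = 0.424, unadjusted p = 0.0779). S100a11 adjoins S100a10 among the protein-coding genes of RefSeq. The study counted unique mappings, so that reads of these 2 genes shared with any pseudogene copies could be missing from their counts. Such copies were not examined here. S100a3 and S100a5, which flank S100a4, had 0 counts in all libraries. S100b is flanked by Dip2a, with 8 and 7 control counts against 3 and 5 clone counts, and by Prmt2, with 5 and 0 counts against 3 and 2. The strand option of the counting is not given in the sources used here.

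Genes for binding partners and receptors of S100 proteins were followed as a list of 48 symbols written from general knowledge. Of these, 46 were listed in the counts and 20 could be tested. The 20 genes had a median log2 fold change of -0.14, against -0.0059 over all tested genes. After adjustment 2 of the 20 genes were called lower and 0 higher, where 3.69% of all tested genes were called in either direction. At an unadjusted p of 0.05 or less, 5 were lower and 2 higher, a rule that 14.7% of all tested genes met in either direction. DESeq2 called 1 lower, Marcks, and 1 higher, Ahnak. Marcks, which encodes an actin-binding substrate of protein kinase C, fell from 746 ± 301 CPM (SD, n = 2) in control cells to 138 ± 18.7 CPM (SD, n = 2), a log2 difference of -2.40 with a standard error of 0.39 (edgeR's quasi-likelihood test, adjusted p = 0.00126). Tpm1, which encodes a tropomyosin, stood at 574 ± 2.51 CPM (SD, n = 2) in control cells and fell to 247 ± 3.69 CPM (SD, n = 2), a log2 difference of -1.22 (adjusted p = 0.0491 by the same test). The call of Tpm1 was lost in 9 of 10 alternatives, among them DESeq2 (adjusted p = 0.376), the replicate block (adjusted p = 0.110), no filter (adjusted p = 0.116) and each of the 4 fits that left out 1 library (edgeR adjusted p from 0.0618 to 0.497). Marcks lost its call only without control 2 (edgeR adjusted p = 0.386).

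None of the partners and receptors named next was called in the main fit. Anxa2, a partner of S100a10, was counted 52 and 71 times in control 1 and control 2, and 120 and 87 times in clones A and B. Its log2 fold change was 0.65 with a 95% interval of 0.074 to 1.23 (edgeR's quasi-likelihood test, adjusted p = 0.253). Per count of Anxa2, control 1 and control 2 held 1.10 and 0.873 counts of S100a10 and the clones 0.550 and 0.736. The ratio was lower in both clones, but it reuses the Anxa2 counts and was given no interval. Levels did not overlap between the groups for 43% of all tested genes. Ahnak, whose large scaffold protein binds S100a10 together with annexin A2, gave 226 and 357 control counts next to 536 and 620 clone counts. Its log2 fold change of 0.90 lay next to the threshold (adjusted p = 0.0554 from edgeR). Ahnak was called by DESeq2 (adjusted p = 0.0237). In edgeR it was called with the replicate block (adjusted p = 0.0459), library totals (0.0438) and no filter (0.0220), and not in the other alternatives. Cacybp, a partner of S100a6, was counted 12 and 20 times per control and 31 and 28 times per clone. Its log2 fold change was 0.80 (edgeR's quasi-likelihood test, adjusted p = 0.363). Ager, the receptor, gave 0 and 2 control counts, 4 and 1 clone counts, and was not tested. Vim, the intermediate filament vimentin that S100b can bind, had 160 and 228 counts against 138 and 105 (log2 fold change -0.77, edgeR adjusted p = 0.115). Vim and Ahnak, like Anxa5 and Anxa6, were named after their values were seen.

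**Figure D4:**
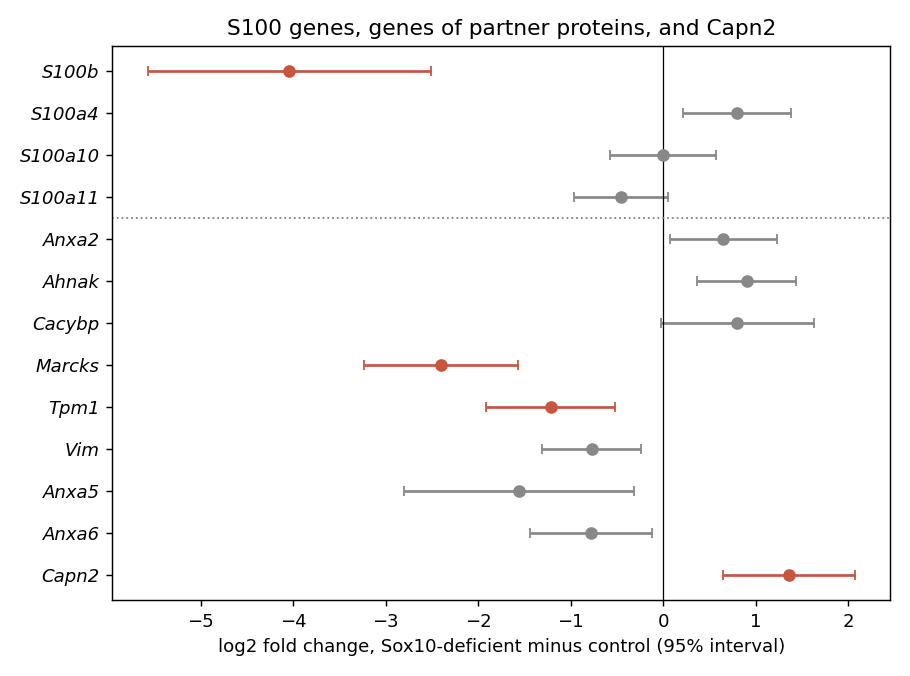
Log2 fold change with its 95% interval (horizontal axis) for the 4 tested S100 genes above the dotted line and, below it, for tested partner genes and for Capn2, with called genes (adjusted p up to 0.05) in red. S100b, Marcks and Tpm1 lie left of 0 and Capn2 right of it among the called genes, and the interval of S100a10, from -0.57 to 0.57, is centred on 0.

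Among the annexins, 6 of 11 listed genes could be tested and 0 were called by edgeR or DESeq2. At an unadjusted p of 0.05 or less, edgeR had 2 lower, Anxa5 and Anxa6, and 1 higher, Anxa2, next to 14.7% of all tested genes in either direction, and DESeq2 had 0. These 6 genes had a median log2 fold change of 0.056. Of 50 listed genes for other EF-hand proteins, 13 could be tested, with a median of -0.16. The sole call among these 13, where 3.69% of all tested genes were called in either direction, was Capn2, which encodes the large subunit of m-calpain and rose from 238 ± 48.2 CPM (SD, n = 2) in control cells to 602 ± 2.69 CPM (SD, n = 2), a log2 difference of 1.36 (edgeR's quasi-likelihood test, adjusted p = 0.0323). The call of Capn2 was lost with DESeq2 (adjusted p = 0.248), the replicate block (adjusted p = 0.0903), at least 10 counts per library (edgeR adjusted p = 0.0537), and without control 2, clone A or clone B (edgeR adjusted p = 0.498, 0.162 and 0.114).

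The tested genes whose pattern was most like that of S100b over the 4 libraries were Erbb3, Ddr1 and Plekha7, by the Euclidean distance of log2 CPM centred on each gene's own mean (0.312, 0.567 and 0.598). Erbb3, a neuregulin receptor of the glial lineage, was counted 15 and 13 times per control and 0 times in both clones. Ddr1, a collagen receptor, had 25 counts in each control and 3 in each clone. Plekha7, whose protein belongs to adherens junctions, gave 11 and 16 control counts and 0 for both clones. As they were picked for a pattern like that of S100b, their own tests add nothing to it. With 4 libraries of few deposited counts, the likeness is a description.

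The identity of the cells was checked on marker genes of the cell types in which S100b is known. The 9 listed markers of oligodendrocyte precursor cells (OPCs), which include Sox10, summed to 2007 to 2206 CPM per control and 1452 to 1631 CPM per clone, and of 5 tested Sox10 alone was called lower (adjusted p = 0.0172 from edgeR, 0.999 from DESeq2 and 0.125 with the replicate block). Without Sox10, the sum was 1758 and 1386 CPM in control 1 and control 2 and 1452 and 1472 CPM in clones A and B, so that both clones lay between the controls. Pdgfra had between 23 and 44 counts in all libraries. Cspg4 was higher in both clones, at 58 and 36 counts against 16 and 31 in the controls, and was not called (log2 fold change 0.93, edgeR adjusted p = 0.196). Nkx2-2 had 20 and 52 control counts against 18 and 25 clone counts (log2 fold change -0.77, edgeR adjusted p = 0.359). Olig1, at 12 and 1 counts, and Olig2, at 7 and 0 counts, were seen in control libraries alone. The authors' table lists a mean of 0 for Olig2, and also for Mog, which had between 11 and 18 deposited counts per library, so that the deposited files differ on these symbols, for a reason that was not tested. Of 12 markers of myelinating oligodendrocytes, 6 had 0 counts in all libraries, Mbp did not exceed 2, and Cnp, at 62 and 68 control counts and 35 and 20 clone counts, was called lower (edgeR's quasi-likelihood test, adjusted p = 0.0331). The call of Cnp was lost with DESeq2 (adjusted p = 0.158), with at least 10 counts per library (edgeR adjusted p = 0.0611), and without control 1, control 2 or clone B (edgeR adjusted p = 0.0931, 0.497 and 0.300). The defining astrocyte genes Aqp4, Aldh1l1, Slc1a2, Slc1a3 and Gjb6 had 0 counts and Gfap 1 count in control 1. The markers of myelinating oligodendrocytes summed to 979 to 1343 CPM per control and 419 to 685 CPM per clone. The sum of the 10 astrocyte markers was 112 to 242 CPM per control and 306 to 360 CPM per clone. Sox9, the 1 marker tested, had 0 and 2 control counts against 30 and 18 clone counts. It passed the filter through the clones alone and was called higher (edgeR adjusted p = 0.00425). That call was lost with the replicate block (adjusted p = 0.0653), without control 2 (edgeR adjusted p = 0.459) and without clone A (edgeR adjusted p = 0.248). Without Sox9 the sum was lower in the clones, at 11.6 and 102 CPM against 112 and 223 CPM, and Fgfr3 had 5 and 17 control counts against 0 and 2 clone counts. The markers of Schwann cells and neural crest summed to 2590 to 2627 CPM per control and 1008 to 1382 CPM per clone. Of 11 listed, 5 were tested, and 3 had 0 counts in all libraries. Of those tested, 2 were called lower, namely Ngfr and Erbb3, where 2.5% of all tested genes were called lower. Ngfr and Erbb3 had 0 counts in both clones and passed the filter through the controls alone, so that they could hardly come out higher. Ncam1, Pmp22 and Tfap2a did not pass the test (edgeR adjusted p = 0.461, 0.245 and 0.982). Without Ngfr and Erbb3 the sum was 1758 and 1900 CPM in control 1 and control 2 and 1382 and 1008 CPM in clones A and B. The call of Erbb3 was lost with the replicate block (adjusted p = 0.105) and without control 2 (edgeR adjusted p = 0.498), and DESeq2 gave no adjusted p for it. Ngfr lost its call without control 2 (edgeR adjusted p = 0.386). The part of these markers in the change of S100b was not tested. The fibroblast markers summed to 3581 to 5012 CPM in the controls and 6807 to 8029 CPM in the clones, mostly from Fn1. Fn1 was not called in the main fit (edgeR adjusted p = 0.0687). DESeq2 called 1 of the 2 tested fibroblast markers higher, and the fit without a filter called 1 of 6 higher. Of the 2 markers tested in the main fit, Fn1 alone had a log2 fold change above 0. Without Fn1 the order turned, with 416 and 630 CPM in control 1 and control 2 and 337 and 204 CPM in clones A and B. The relation of these markers to the values of S100a4 was not tested. Microglial markers stayed at 79.3 to 204 CPM, with 5 of 8 at 0 counts.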

How the data were processed

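RNA-Seq libraries of 2 control and 2 Sox10-deficient samples of OLN93 cells were analysed. Reads were aligned by the authors to rn5 using STAR 2.5.1, and they deposited HTSeq counts per gene symbol for each library, without normalization. The authors' deposited table also gives a mean normalized count per Ensembl gene over all libraries, rounded to whole numbers and treated as a score. Its fold changes, standard errors, Wald statistics and p-values are the authors' own comparison and were not used.

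The quasi-likelihood test of edgeR 4.0.16 under R 4.3.3 was run after filterByExpr and TMM scaling, with condition as the sole term and Benjamini-Hochberg adjustment across the 2438 genes that passed. Standard errors were derived from the F statistic. The test was run on simulated counts with 200 changed genes. That check required only that the median log2 fold change of the most changed genes had the right sign. It set no limit on false or missed calls. Genes were called at an adjusted p of 0.05 or less. Members, gene lists and tests were chosen with earlier results of these data known. Named were the 7 members, other S100 genes with counts, called genes of the lists, Anxa2, Cacybp, Ager, Sox10 and the 3 nearest genes of each called member. The alternatives were DESeq2 1.42.0, its size factors or library totals in edgeR, other filters, the replicate number as a block, and leaving out each library. Promoters were read from RefSeq on GRCr8. Protein sequences were not analysed here.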

Additional observations from a re-analysis of the deposited data

How the results depend on the processing

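S100b kept its direction and its call with DESeq2, with its size factors or library totals in edgeR, and without a filter, with log2 fold changes from -4.57 to -3.55 and adjusted p-values from 2.08e-05 to 0.386 over 9 alternatives. The fits that each left out 1 library gave that same range of log2 fold changes, and the call was lost without either control, so that these fits called 0 or 1 members. Where each library had to hold 10 or more counts, S100b could not be tested and 0 members were called, since that minimum removes a gene that fell so far. S100a4 stayed above 0 and uncalled under all 10 alternatives, with log2 fold changes from 0.74 to 0.84. S100a10, which lies at 0, turned to -0.0049 with DESeq2 and to -0.026 with library totals, and spanned -0.32 to 0.29 when 1 library was left out, uncalled throughout.

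Over all genes, 61 were called lower and 29 higher. DESeq2 gave 30 and 11, the minimum of 10 counts gave 8 and 9 of 1122 tested genes, and no filter gave 71 and 47 of 10024. Leaving out 1 library gave 0 to 70 lower and 0 to 39 higher genes, with 39 and 16 without clone A, 44 and 15 without clone B, and 0 of both without control 2. The cause was not tested. The minimum of 10 counts moved the share of lower among called genes from 67.8% to 47.1%. With the replicate block, S100b had a log2 fold change of -4.08 (adjusted p = 0.0408 from edgeR) and 28 lower and 14 higher genes were called. The libraries share only a number, with a correlation of 0.12 between the deviations of same-numbered libraries over genes. S100a1, S100a6, S100a13 and S100a16 had counts at or under the floor and were not compared.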
